A study of Mus musculus with 24 samples.

Results

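The 8 genes described here, Trem1, Zc3hav1l, Fam199x, Grasp, Fzd9, Map3k9, Zfp174 and Dnmt3a, were picked from 14425 genes with a measurable probe because their RNA was lower in ID8 cells given a high dose of type I interferon. The choice used measured values. Trem1, Zc3hav1l, Fam199x, Grasp, Fzd9, Map3k9 and Dnmt3a came from the comparison of 1000 IU/ml interferon (IFN) epsilon with untreated cells, Trem1 and Dnmt3a also from 1000 against 10 IU/ml IFN epsilon, and Zfp174 and Map3k9 from 1000 IU/ml IFN beta. Falls along the dose steps were open to the same choice, so the values of these 8 genes are given throughout as a description and none of them as an independent test.

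ID8 is a mouse ovarian cancer cell line derived from surface epithelium. All groups are cultures of this 1 line, and were exposed for 3 h to phosphate-buffered saline as vehicle (untreated), or to recombinant mouse IFN epsilon, or to recombinant mouse IFN beta, with doses of 10, 100 and 1000 IU/ml for each. RNA was read on 22 single-colour arrays, which gave 3 samples per group, each made on its own date, except IFN beta at 10 and at 100 IU/ml with 2 samples each (dates 1 and 2), because the date 3 arrays of those groups are labelled as excluded. Each sample pooled 3 parallel treatments of its date, and each untreated sample was read on 2 arrays, which were averaged.

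Type I interferons bind a common receptor, IFNAR, and signalling from it switches on antiviral genes, many of which carry the interferon-stimulated response element, a short promoter motif. Induction through this motif is well described, whereas genes that fall within hours of treatment are less often followed. The 8 genes have unrelated functions. Trem1 encodes an activating receptor of myeloid cells that signals through the adaptor DAP12 (Tyrobp), and Fzd9 a Frizzled receptor for Wnt ligands. Map3k9 encodes mixed-lineage kinase 1, which acts upstream of the JNK pathway, and Grasp a scaffold protein that binds cytohesins and metabotropic glutamate receptors. Dnmt3a encodes a de novo DNA methyltransferase, Zfp174 a zinc finger protein with a SCAN domain, and Zc3hav1l a protein related to the antiviral RNA-binding protein ZAP (Zc3hav1). Fam199x is little characterised.

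All 8 genes had a promoter window in the RefSeq set (GRCm38.p6), with 10 windows in all because Dnmt3a has 3, of which the first and second overlap. The 250 bases before each start were searched on both strands for the interferon-stimulated response element, the gamma-activated site (TTCNNNGAA), the AP-1 site (TGANTCA), the E-box (CACGTG) and the GC box (GGGCGG). The windows of Trem1, Zc3hav1l, Map3k9 and Dnmt3a (its first) are shown because they span the range from poor to rich in CpG, and that of Isg15, an interferon-induced gene, is shown because it holds the response element. Capitals mark matches to the response element, the gamma-activated site and the GC box, and each sequence runs 5′ to 3′ towards the gene. They lie at chr17:48232489-48232738 (Trem1, plus strand), chr6:38299260-38299509 (Zc3hav1l, minus strand), chr12:81781171-81781420 (Map3k9, minus strand), chr12:3806730-3806979 (Dnmt3a, plus strand) and chr4:156200819-156201068 (Isg15, minus strand).
Trem1: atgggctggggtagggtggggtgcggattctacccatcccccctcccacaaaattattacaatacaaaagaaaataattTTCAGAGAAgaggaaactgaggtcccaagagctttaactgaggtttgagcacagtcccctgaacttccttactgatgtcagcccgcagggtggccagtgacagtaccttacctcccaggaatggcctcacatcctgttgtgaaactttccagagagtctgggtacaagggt
Zc3hav1l: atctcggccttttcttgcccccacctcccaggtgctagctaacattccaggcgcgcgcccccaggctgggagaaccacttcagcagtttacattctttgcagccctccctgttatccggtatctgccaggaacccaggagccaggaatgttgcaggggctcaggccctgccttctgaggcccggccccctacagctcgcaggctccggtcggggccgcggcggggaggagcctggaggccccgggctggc
Map3k9: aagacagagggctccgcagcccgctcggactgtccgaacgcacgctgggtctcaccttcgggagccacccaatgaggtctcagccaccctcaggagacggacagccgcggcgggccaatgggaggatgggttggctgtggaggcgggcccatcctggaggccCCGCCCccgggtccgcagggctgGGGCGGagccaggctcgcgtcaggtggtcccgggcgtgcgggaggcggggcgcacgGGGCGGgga
Dnmt3a: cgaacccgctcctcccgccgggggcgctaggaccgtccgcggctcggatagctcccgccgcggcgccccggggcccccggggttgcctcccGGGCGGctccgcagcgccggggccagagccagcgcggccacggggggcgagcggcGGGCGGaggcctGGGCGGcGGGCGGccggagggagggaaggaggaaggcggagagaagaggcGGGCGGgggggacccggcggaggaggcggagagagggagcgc
Isg15: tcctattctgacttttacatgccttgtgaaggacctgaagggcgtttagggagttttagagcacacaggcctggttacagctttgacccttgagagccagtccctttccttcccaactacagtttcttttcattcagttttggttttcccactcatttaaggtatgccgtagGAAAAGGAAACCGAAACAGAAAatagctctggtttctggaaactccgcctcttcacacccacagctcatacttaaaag

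The response element was found in 0 of the 10 windows of these genes, beside 2.98% of all 32851 windows of that length. Among induced genes, the same search found it for Isg15 and Ifit1 but not for Irf7, Zc3hav1 and Trim25. Its absence from a window thus does not separate the lowered genes from induced ones. Trem1 held the single gamma-activated site, a motif found in 7.02% of windows, and the AP-1 site was found in 0 of the 10 windows, beside 6.75%. The E-box was present in the window of Fzd9 and in the third of Dnmt3a, beside 6.02% of all windows. GC boxes were found in 7 of the 10 windows, those of Fam199x, Grasp, Fzd9, Map3k9 and all 3 of Dnmt3a, beside 32.7% of all windows. CpG counts ran from 2 in Trem1 to 42 in Fzd9, with a median of 6 over all windows, and Trem1 was the only 1 of the 8 genes below that median. The shares and the median cover the windows of all genes, with or without a measurable probe, whereas each of the 8 genes had such a probe. The part of this in the contrasts was not tested. The motif hits are matches of letters within a window and do not locate a bound factor.

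Markers of ovarian surface epithelium were present. Of 13 such markers, 11 passed the filter for signal above background, among them Krt8, Krt18, Wt1 and Msln, while Muc16 and Pax8 did not. Of 16 leukocyte markers 5 passed, Itgam, Cd68, Cd14, Csf1r and Cd3e, and Ptprc, Lyz2, Adgre1, S100a8 and S100a9 were among those that did not. Of 10 endothelial and fibroblast markers 7 passed, with Dcn and Col1a1 the brightest. Summed over those 5 genes, the leukocyte signal lay between 396.5% and 436.9% of the array's 75th-percentile signal in untreated samples, between 353.5% and 445.1% at 1000 IU/ml IFN epsilon, and between 322.4% and 450.1% at 1000 IU/ml IFN beta. The endothelial and fibroblast sum lay between 11140% and 13950% in untreated samples, 10540% and 14210% at 1000 IU/ml IFN epsilon, and 11960% and 14320% at 1000 IU/ml IFN beta. The part of these cell types' genes in the results was not tested. In bulk RNA, fewer cells of a type and less RNA per cell cannot be told apart. The interferon response itself was present. Isg15, which encodes a ubiquitin-like antiviral modifier, rose by 3.86 ± 0.39 (log2, SE) at 1000 IU/ml IFN epsilon (limma, adjusted p = 3.18e-05) and by 3.74 ± 0.39 at 1000 IU/ml IFN beta (limma, adjusted p = 6.1e-05).

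Levels are given below as a percent of the 75th-percentile signal of the same array, a scale on which different probes cannot be ranked, and differences as log2 ratios with the standard error of the fit. Against untreated cells, 10 of the 14425 genes (0.0693%) passed an adjusted p of 0.05 as lower at 1000 IU/ml IFN epsilon, and 7 of these are among the 8 genes. Since those 7 were chosen on this comparison, the count describes the choice. The other genes called lower were Dennd5b (-0.66 ± 0.14), Gxylt1 (-0.57 ± 0.12) and Cbx2 (-0.54 ± 0.12), and just outside the threshold lay AA543186, Kdm2b and Phtf2, with adjusted p of 0.0585, 0.0644 and 0.0755. Fzd9 was the last inside it, at 0.0492. With the date as a replicate block, 517 genes (3.58%) were called lower and 4.53% of genes higher, against 2.24% higher without it. The count without the block was 4 without the date 2 sample of 1000 IU/ml IFN epsilon, and 5 without its date 1 sample, without the date 2 untreated sample or without the date 3 untreated sample. Trem1, Map3k9 and Dnmt3a were called with each of the 19 samples left out in turn, Grasp with 17, Zc3hav1l and Fam199x with 15 each, and Fzd9 with 3. Under other settings calls were lost more widely. With all 24 arrays every one of the 7 but Dnmt3a lost its call. The added arrays are in neither group compared here, so the differences stayed the same and only their standard errors could move. With median scaling Zc3hav1l, Fzd9, Map3k9 and Dnmt3a lost the call, and with only the groups compared Zc3hav1l, Fam199x and Fzd9 did. The slide term ended the calls of Zc3hav1l and Fam199x, and normexp background correction, the deposited table or no filter those of Fam199x and Fzd9.

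Trem1 had the deepest fall of the 7 genes taken from the IFN epsilon comparison. Its level was 95.7%, 121% and 106% on dates 1, 2 and 3 in untreated cells and 45.6%, 46.7% and 54.6% at 1000 IU/ml IFN epsilon. The groups were far apart, with every treated sample at about the same level. Such complete separation was present at this dose in 7 of the 8 genes, all but Zfp174, and in 6.54% of all genes. At 100 IU/ml IFN epsilon it was 58.5%, 78.2% and 61.8%, and at 10 IU/ml 86.2%, 103% and 104%, with 2 of the 3 samples of the last group inside the untreated range. IFN beta left it at 114% and 112% at 10 IU/ml and at 89.8% and 108% at 100 IU/ml, and gave 77.0%, 80.6% and 46.0% at 1000 IU/ml. Date 3 thus stood apart at the high IFN beta dose, and reached the level seen with IFN epsilon. The difference from untreated cells was -0.14, -0.71 and -1.14 (SE 0.19) at 10, 100 and 1000 IU/ml IFN epsilon, and -0.70 ± 0.19 at 1000 IU/ml IFN beta. A second Trem1 probe was well above background on 0 of 22 arrays and gives no check. The adaptor gene Tyrobp did not pass the filter, nor did Trem3, Treml2 and Treml4, while Trem2 (0.00 ± 0.81 at 1000 IU/ml IFN epsilon) and the kinase gene Syk (-0.05 ± 0.35) were measured. Of 12 genes of TREM and DAP12 signalling 7 could be tested, and besides Trem1 none was called lower at 1000 IU/ml IFN epsilon. This list and those below were built around genes chosen because they were called. With 0.0693% of all genes called lower at this dose, a lone call of the chosen gene describes the choice. The median of the other tested genes of the list was -0.03, beside -0.05 for all genes.

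**Figure D1:**
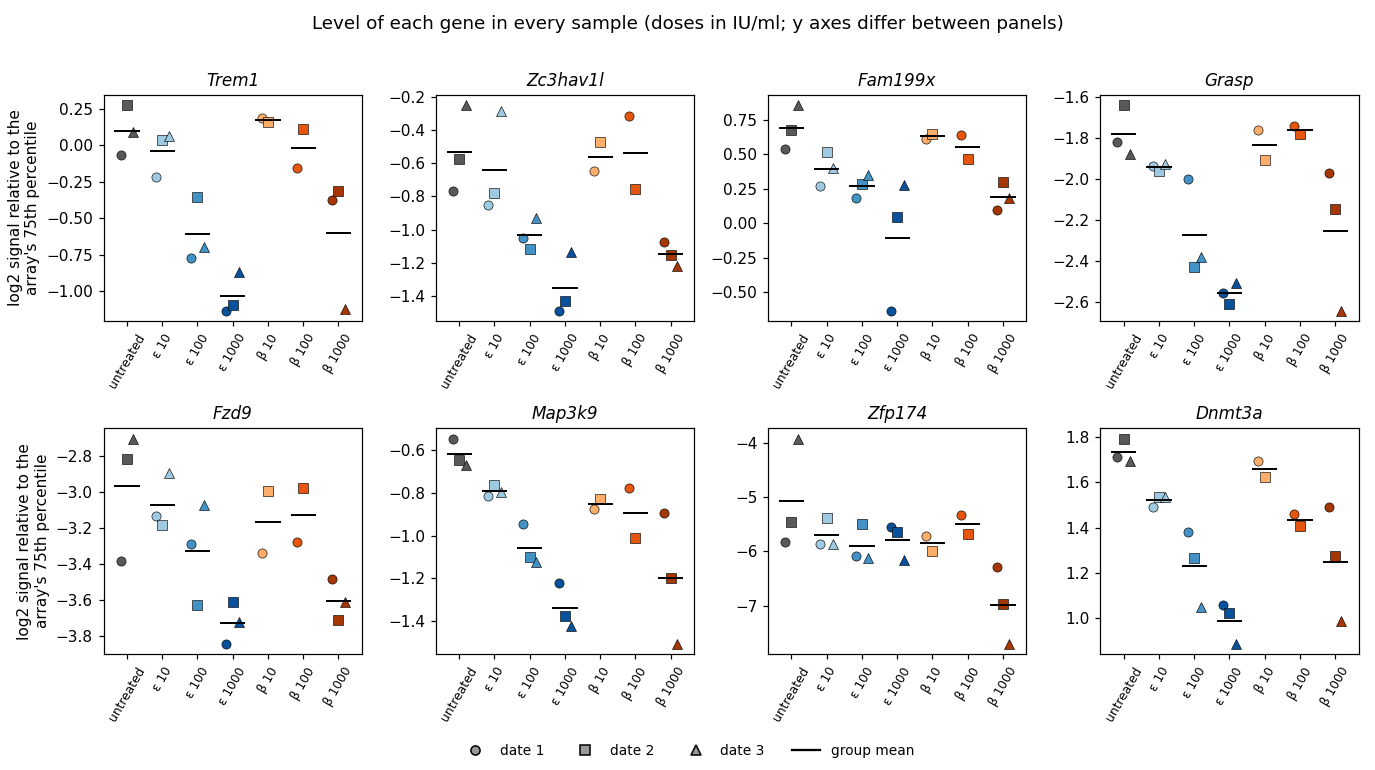
Log2 signal relative to the array's 75th percentile for each of the 8 genes in 7 groups (ε, IFN epsilon; β, IFN beta; doses in IU/ml). Each point is a sample, its shape the date, and bars are group means. In 7 genes the samples at 1000 IU/ml IFN epsilon lie below all untreated samples, and Zfp174 is the exception.

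Dnmt3a had small spread between samples. Untreated cells had 327%, 346% and 324% on the 3 dates, and 1000 IU/ml IFN epsilon gave 208%, 203% and 185%. Levels at 100 IU/ml IFN epsilon (260%, 241% and 207%) and at 10 IU/ml (281%, 290% and 290%) lay between, so that every IFN epsilon sample was below every untreated sample. IFN beta gave 324% and 308% at 10 IU/ml, 275% and 265% at 100 IU/ml, and 281%, 242% and 198% at 1000 IU/ml. The lowest untreated value and the higher of the 10 IU/ml IFN beta values were about equal, and the groups at 100 and 1000 IU/ml IFN beta overlapped. The difference at 1000 IU/ml was -0.74 ± 0.12 for IFN epsilon and -0.48 ± 0.12 for IFN beta. A second, dimmer Dnmt3a probe (14.9% in untreated cells, well above background on all 22 arrays) showed -0.26 ± 0.31 and -0.25 ± 0.31, and with the mean of both probes the IFN epsilon difference was -0.50, with an adjusted p of 0.46 in limma. Neither relative was called. Dnmt1, the maintenance methyltransferase, differed by -0.07 ± 0.25 and Dnmt3b, the other de novo enzyme, by -0.04 ± 0.17 at 1000 IU/ml IFN epsilon. All 17 genes listed for DNA methylation and demethylation were tested, and none was called besides Dnmt3a, which was chosen on this comparison. The median of the others was -0.04, beside -0.05 for all genes. With the date block Uhrf2, a methylation reader, was also called lower (-0.26, adjusted p = 0.0312 in limma) and Tet2, a demethylating dioxygenase, higher (0.58, adjusted p = 0.0486). The block called 3.58% of all genes lower and 4.53% higher.

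Map3k9 was the gene taken from both interferons. Its level was 68.6%, 64.0% and 62.9% in untreated cells, 42.8%, 38.5% and 37.3% at 1000 IU/ml IFN epsilon, and 53.8%, 43.6% and 35.2% at 1000 IU/ml IFN beta. The high IFN epsilon samples were close together and the high IFN beta samples spread from near the 10 IU/ml level downwards. At 10 and 100 IU/ml it was 56.9%, 58.9% and 57.7%, then 51.9%, 46.7% and 45.9% for IFN epsilon, and 54.5% and 56.3%, then 58.4% and 49.5% for IFN beta. Every treated sample was below every untreated sample, at each dose of each interferon, and the 2 lower IFN beta doses did not differ beyond their spread. The difference at 1000 IU/ml was -0.72 ± 0.13 for IFN epsilon and -0.58 ± 0.13 for IFN beta. A second Map3k9 probe was above background on 0 of 22 arrays. The other mixed-lineage kinases tested, Map3k10, Map3k11, Map3k12, Map3k13 and Map3k21, differed by -0.10, -0.20, -0.30, 0.04 and -0.52 at 1000 IU/ml IFN epsilon and none was called. Of 17 genes of the pathway 15 were tested. None was called besides Map3k9, which was chosen as called, and the median of the others was -0.19. With the date block the JNK scaffolds Sh3rf1 (-0.30, adjusted p = 0.0161 in limma) and Mapk8ip3 (-0.29, adjusted p = 0.0289) were called lower as well. The block called 3.58% of all genes lower at 1000 IU/ml IFN epsilon.

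At 1000 IU/ml of either interferon Zc3hav1l was lower and its relative Zc3hav1 higher than in untreated cells. This did not hold at each dose, since at 100 IU/ml IFN beta Zc3hav1 differed by 0.73 ± 0.35 and Zc3hav1l by -0.01 ± 0.20. Untreated cells had 58.9%, 67.1% and 84.0%, 1000 IU/ml IFN epsilon gave 35.6%, 37.0% and 45.5%, and 1000 IU/ml IFN beta gave 47.5%, 45.04% and 43.0%. The treated groups did not overlap the untreated group, although untreated samples were well spread. At 100 IU/ml the level was 48.3%, 46.2% and 52.5% with IFN epsilon and 80.2% and 59.3% with IFN beta, and at 10 IU/ml 55.3%, 58.2% and 81.9% against 63.8% and 72.0%. Both lower IFN beta doses lay within the untreated range. The difference at 1000 IU/ml was -0.82 ± 0.17 for IFN epsilon and -0.62 ± 0.17 for IFN beta. Zc3hav1, which encodes ZAP, had 67.8%, 70.1% and 96.2% in untreated cells and 285%, 369% and 365% at 1000 IU/ml IFN epsilon. It rose by 2.13 ± 0.32 (limma, adjusted p = 0.000936) with IFN epsilon and by 1.92 ± 0.32 (limma, adjusted p = 0.00319) with IFN beta at that dose. Of the 12 genes listed with ZAP and its partners, 4 rose at 1000 IU/ml of either interferon. They were Zc3hav1, its cofactor gene Trim25 (1.93 and 1.85) and the related Parp12 (2.91 and 2.76) and Parp11 (1.74 and 1.43). None was called lower besides Zc3hav1l, at 1000 IU/ml IFN epsilon, where it was chosen. The median of the list without Zc3hav1l was 0.11, beside -0.05 for all genes.

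**Figure D2:**
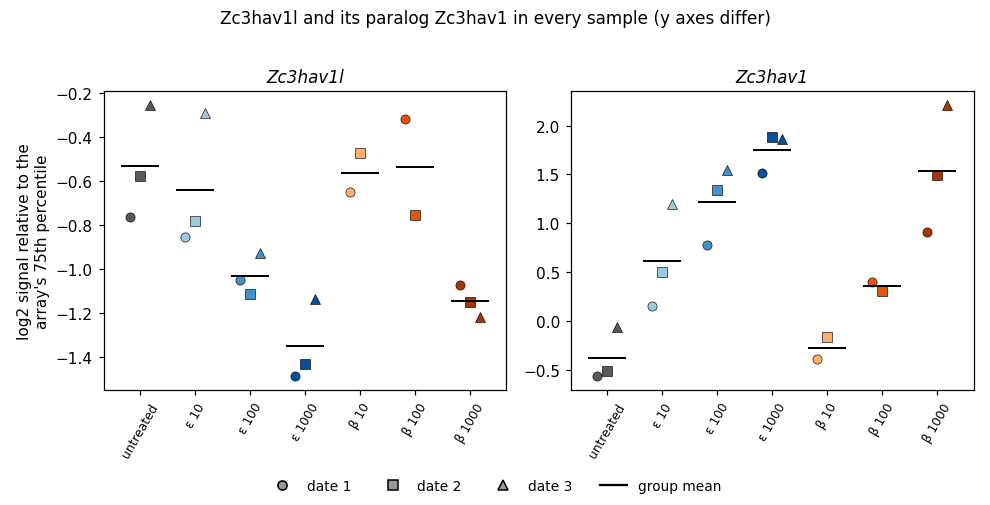
Log2 signal relative to the array's 75th percentile for Zc3hav1l (left) and its paralog Zc3hav1 (right) in 7 groups (ε, IFN epsilon; β, IFN beta; doses in IU/ml). Points are samples, shapes are dates and bars are group means, and the 2 probes are not on a common scale. Zc3hav1l is lowest and Zc3hav1 highest in mean at 1000 IU/ml IFN epsilon.

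Grasp was at 28.4%, 32.0% and 27.2% in untreated cells and at 17.0%, 16.4% and 17.6% with 1000 IU/ml IFN epsilon, a tight group. At 100 IU/ml IFN epsilon it was at 24.96%, 18.6% and 19.2%, and at 10 IU/ml at 26.1%, 25.7% and 26.3%. The lower IFN beta doses gave 29.5% and 26.6%, then 29.9% and 29.0%, all near the untreated level, and the high dose gave 25.5%, 22.6% and 16.0%. Date 3 was again the low sample. The difference at 1000 IU/ml was -0.78 ± 0.16 for IFN epsilon and -0.47 ± 0.16 for IFN beta. Cytohesins, which are exchange factors for Arf proteins and partners of Grasp, showed differences of -0.07 (Cyth1), -0.15 (Cyth2), 0.01 (Cyth3) and -0.16 (Cyth4), and Cytip, a related scaffold, 0.07. Of 13 genes of this list 10 were tested. None was called besides Grasp, which was chosen as called, and the median of the others was -0.07. Under the date block Iqsec1, an Arf exchange factor, was called lower (-0.32, adjusted p = 0.0396 in limma), as were 3.58% of all genes.

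Among the genes described here that were called at 1000 IU/ml IFN epsilon, Fzd9 had the least secure call. Its level was 9.57%, 14.2% and 15.3% in untreated cells and 6.96%, 8.18% and 7.59% at 1000 IU/ml IFN epsilon. At 10 and 100 IU/ml IFN epsilon it was 11.4%, 10.99% and 13.4%, then 10.2%, 8.08% and 11.9%, and the date 1 sample was above the untreated sample of its date at both doses. IFN beta gave 9.86% and 12.52%, then 10.3% and 12.7%, then 8.92%, 7.63% and 8.18%. The high-dose groups were below the untreated range, and the lower doses overlapped it. The difference at 1000 IU/ml was -0.76 ± 0.19 for IFN epsilon and -0.63 ± 0.19 for IFN beta. With normexp background correction these became -0.36 and -0.42, and the first was no longer called (limma, adjusted p = 0.667). Of the Frizzled receptors tested beside it, Fzd1, Fzd2, Fzd4, Fzd5, Fzd6, Fzd7 and Fzd8, differences ran from -0.27 (Fzd2) to 0.09 (Fzd7) at 1000 IU/ml IFN epsilon, and none was called, while Fzd3 and Fzd10 did not pass the filter. Of 44 Wnt pathway genes 37 were tested. None was called besides Fzd9, which was chosen as called, and the median of the others was -0.12. With the date block Znrf3, a ubiquitin ligase that removes Frizzled receptors from the membrane, was called lower too (-0.42, adjusted p = 0.0305 in limma), as were 3.58% of all genes.

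Fam199x was at 145%, 160% and 181% in untreated cells and at 64.3%, 103% and 121% with 1000 IU/ml IFN epsilon. The date 1 sample was the low one, and the 2 untreated arrays of date 3 differed 1.54-fold. At 10 and 100 IU/ml IFN epsilon the levels were 120%, 143% and 132%, then 113%, 122% and 127%. IFN beta gave 153% and 156%, then 156% and 138%, then 107%, 123% and 113%, and of these groups only the high dose lay wholly below the untreated range. The difference at 1000 IU/ml was -0.80 ± 0.18 for IFN epsilon and -0.50 ± 0.18 for IFN beta. Without the first untreated array of date 3 the IFN epsilon difference was -0.69, with an adjusted p of 0.062 in limma.

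Zfp174 was near the limit of measurement, and it was not called at 1000 IU/ml IFN epsilon. Its probe was well above background on 7 of 22 arrays, 3 of 6 untreated, 0 of 3 at 1000 IU/ml IFN beta and 0 of 2 at 10 IU/ml IFN beta. The 6 untreated arrays gave 1.93% and 1.60% on date 1, 2.22% and 2.35% on date 2, and 26.6% and 1.63% on date 3. A single array thus read the same RNA 16.4-fold higher than its partner, whereas in the other 7 genes the arrays of an untreated sample differed by at most 1.54-fold. The probe passed the filter for signal above background only through untreated cells, by their samples of dates 2 and 3. On date 3 it did so only by that high array. Its place among the tested genes thus rests on the group where it was highest. At 1000 IU/ml IFN epsilon the levels were 2.13%, 2.00% and 1.41%, and within dates the differences were 0.28, -0.19 and -2.23. At 1000 IU/ml IFN beta they were 1.28%, 0.80% and 0.48%, not well above background on any array. As measured, the mean differed from untreated cells by -1.91 ± 0.43, but the signal there has only a bound, from the lowest probe that is above background on the same arrays, and this gives at least 1.28-fold lower. Without the array at 26.6% the mean untreated level was 1.89%, below that bound, so no fold could be given, and the measured difference was -1.24 with an adjusted p of 0.0662 in limma. With normexp background correction the difference was -0.45 (limma, adjusted p = 1). Of 26 genes with a SCAN domain 25 were tested. None was called at 1000 IU/ml IFN beta besides Zfp174, which was chosen there, beside 0.0139% of all genes called lower. The median of the others was -0.04, as for all genes.

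**Figure D3:**
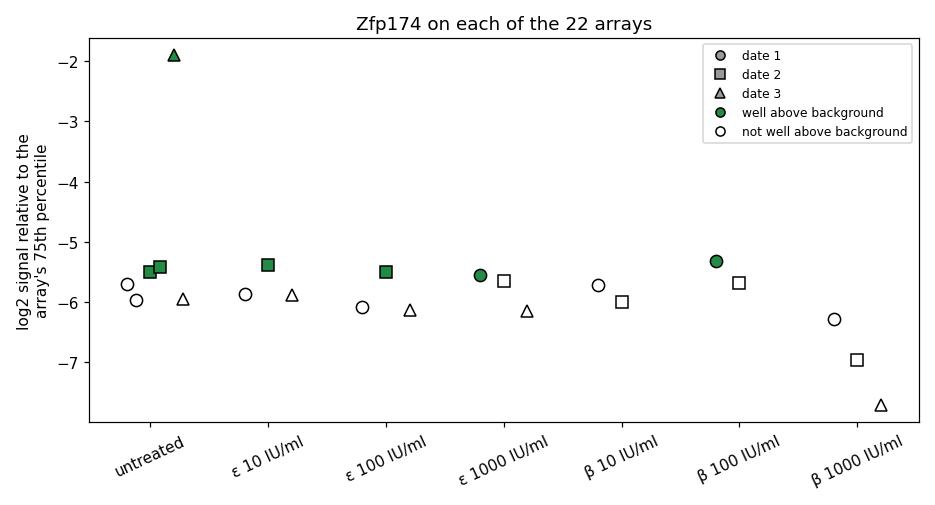
Zfp174 on each of the 22 arrays, as log2 signal relative to the array's 75th percentile, by group (ε, IFN epsilon; β, IFN beta). Shapes are dates, filled points are well above background and open points are not. A single untreated array of date 3 (26.6% of the 75th percentile) stands above the other 21.

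Against untreated cells, 2 genes (0.0139%) were called lower at 1000 IU/ml IFN beta, Zfp174 and Map3k9, both chosen there, and 1.58% were called higher. In the 7 genes other than Zfp174, which was not measurable there, all samples of that group lay below all untreated samples, beside 4.6% of all genes. With the date block 94 genes (0.652%) were called lower, and 5 of the 8 were among them, the other three being Trem1, Zc3hav1l and Dnmt3a. The count without the block moved with most samples. It was 0 without the untreated sample of date 2 or of date 3, the 10 IU/ml IFN epsilon sample of date 1, the 1000 IU/ml IFN epsilon sample of date 2, either 10 IU/ml IFN beta sample, or the 1000 IU/ml IFN beta sample of date 2 or of date 3. It was 1 without the 10 IU/ml IFN epsilon sample of date 2 or 3, the 100 IU/ml sample of date 1 or 2, or the 1000 IU/ml sample of date 1 or 3, and 18 without the 1000 IU/ml IFN beta sample of date 1. Over these 19 leave-outs, Map3k9 was called in 3 and Zfp174 in 9.

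Within dates, the 7 genes other than Zfp174 lay below the untreated sample of the same day on all 3 dates at 1000 IU/ml IFN beta, a pattern shared by 31.2% of all genes, and at 1000 IU/ml IFN epsilon, beside 33.2%. This held on all 3 dates with either untreated array alone as the reference. At 1000 IU/ml IFN beta these 7 genes had their deepest difference on date 3, while 48.3% of the 4504 genes that were below untreated on all 3 dates did so. Their median difference was -0.31, -0.55 and -0.84 on dates 1, 2 and 3 with IFN beta and -0.72, -0.79 and -0.81 with IFN epsilon. Without the date 3 sample the IFN beta difference was -0.45 for Trem1 and -0.28 for Grasp. The mean rise of the interferon-induced genes Isg15, Ifit1, Irf7 and Usp18 was 4.39, 5.63 and 4.70 with IFN beta, highest on date 2. This order depends on the gene and on the untreated level. Isg15 was at 10950%, 12390% and 20810% on dates 1, 2 and 3 at that dose, and at 1003%, 585% and 2008% in untreated cells. Parp11, also induced, was at 243%, 251% and 530%, and at 117%, 118% and 120% in untreated cells. The part of the interferon response in the date order was not tested. The 7 genes were also below untreated cells within each of the 3 slides with 1000 IU/ml IFN epsilon and each of the 2 with 1000 IU/ml IFN beta. Trem1 differed by -1.41 to -0.95 and Dnmt3a by -0.82 to -0.67 on the former, and by -1.02 to -0.38 and -0.56 to -0.44 on the latter. Slides mixed dates, so these are not comparisons within a date. No 1000 IU/ml IFN beta array shared a slide with an untreated array of its date, and with IFN epsilon only that of date 3 did.

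**Figure D4:**
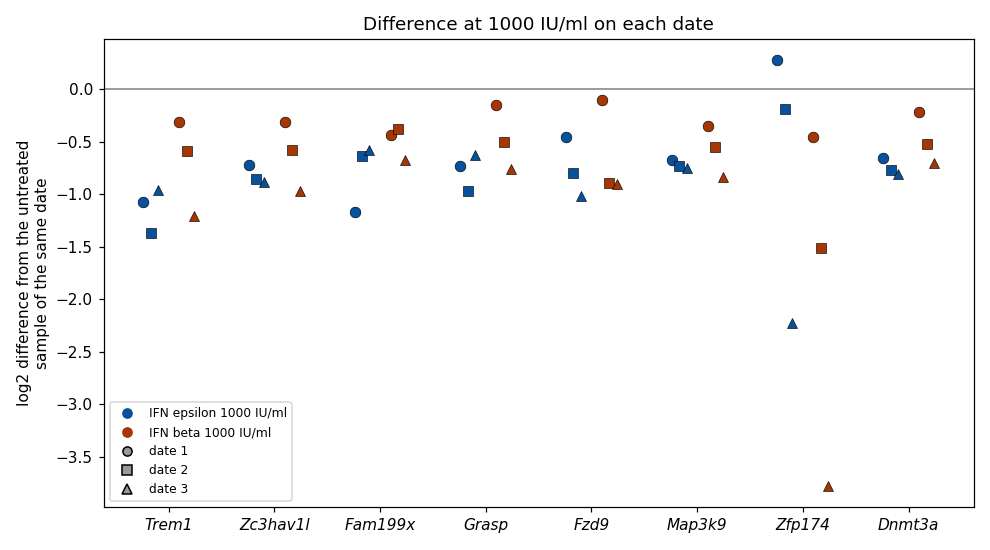
Log2 difference from the untreated sample of the same date at 1000 IU/ml IFN epsilon (blue) and IFN beta (brown) for the 8 genes, with shapes for the 3 dates. The line marks no difference. All points but 1, Zfp174 with IFN epsilon on date 1 (0.28), lie below it, and the date 3 point is the lowest of the IFN beta points in each gene. Zfp174 was not well above background on any array of 1000 IU/ml IFN beta.

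Across doses, group means fell at every step from untreated cells through 10 and 100 to 1000 IU/ml IFN epsilon in 7 of the 8 genes, beside 13.3% of all genes, and at every step of IFN beta in 3 of the 8, beside 5.55%. At 100 IU/ml IFN epsilon 0 genes (0%) were called lower by limma against untreated cells, 122 (0.846%) at an unadjusted p under 0.05 and 21 with the date block (0.146%), which included Map3k9 and Dnmt3a. In 6 of the 8 all samples at that dose lay below all untreated samples, beside 3.63% of all genes, and at 100 IU/ml IFN beta this was so for 2, Map3k9 and Dnmt3a, beside 5.46%. These comparisons share the untreated samples with those used for the choice.

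From the lower IFN beta doses to 1000 IU/ml, the 6 genes taken from IFN epsilon alone (Trem1, Zc3hav1l, Fam199x, Grasp, Fzd9 and Dnmt3a) all had estimates below 0, from -0.68 ± 0.18 (Trem1) and -0.60 ± 0.16 (Zc3hav1l) to -0.30 ± 0.12 (Dnmt3a). None was called. In all, 0 genes (0%) were called lower by limma here, 292 (2.02%) at an unadjusted p under 0.05. This count was 20 without the 1000 IU/ml IFN beta sample of date 1, and 3 without the 100 IU/ml IFN beta sample of date 2. In 5 of the 6, all but Dnmt3a, every sample at 1000 IU/ml was below every sample at 10 and 100 IU/ml, beside 2.63% of all genes. The lower doses lack date 3, on which the differences from the untreated sample of the day were deepest at the high dose. With the date block Zc3hav1l (-0.69 ± 0.13) was among the 27 genes called lower (0.187%). On dates 1 and 2 alone the 6 differences lay between -0.56 ± 0.13 (Zc3hav1l) and -0.17 ± 0.09 (Dnmt3a), and none was called. With all 24 arrays the differences of Trem1, Grasp and Dnmt3a were -0.33, -0.24 and -0.15, and with normexp that of Fzd9 was -0.24. From the lower IFN epsilon doses to 1000 IU/ml, 0 genes (0%) were called lower by limma, 140 (0.971%) at an unadjusted p under 0.05. With the date block 97 (0.672%) were, among them Trem1, Zc3hav1l, Map3k9 and Dnmt3a.

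Between the interferons at 100 IU/ml, the 7 genes other than Zfp174 were lower with IFN epsilon, by -0.59 to -0.16, against a median of -0.02 for all genes. With all 24 arrays Fzd9 (0.025) and Map3k9 (0.057) were higher instead, and Trem1, Zc3hav1l, Grasp and Dnmt3a differed by -0.21, -0.26, -0.19 and -0.08. The largest differences without the excluded arrays were those of Trem1 (-0.59 ± 0.22, interval -1.05 to -0.12), Grasp (-0.51 ± 0.17, interval -0.88 to -0.14) and Zc3hav1l (-0.50 ± 0.20, interval -0.91 to -0.08). Those of Dnmt3a (-0.20), Fzd9 (-0.20), Map3k9 (-0.16) and Fam199x (-0.28) had intervals that included 0. None was called, and 0 genes (0%) were called lower by limma in this comparison, 112 (0.776%) at an unadjusted p under 0.05 and 0 with the date block. This count was 1 without the 1000 IU/ml IFN epsilon sample of date 2 or without the 100 IU/ml IFN beta sample of date 2. Samples did not overlap in 5 of the 8, beside 8.21% of all genes. The same mean of 4 interferon-induced genes had risen by 4.09, 5.58 and 4.20 on dates 1, 2 and 3 with 100 IU/ml IFN epsilon. With 100 IU/ml IFN beta it had risen by 2.49 and 3.72 on dates 1 and 2, and by 4.75 on the excluded date 3 array. Its part in the differences was not tested.

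**Figure D5:**
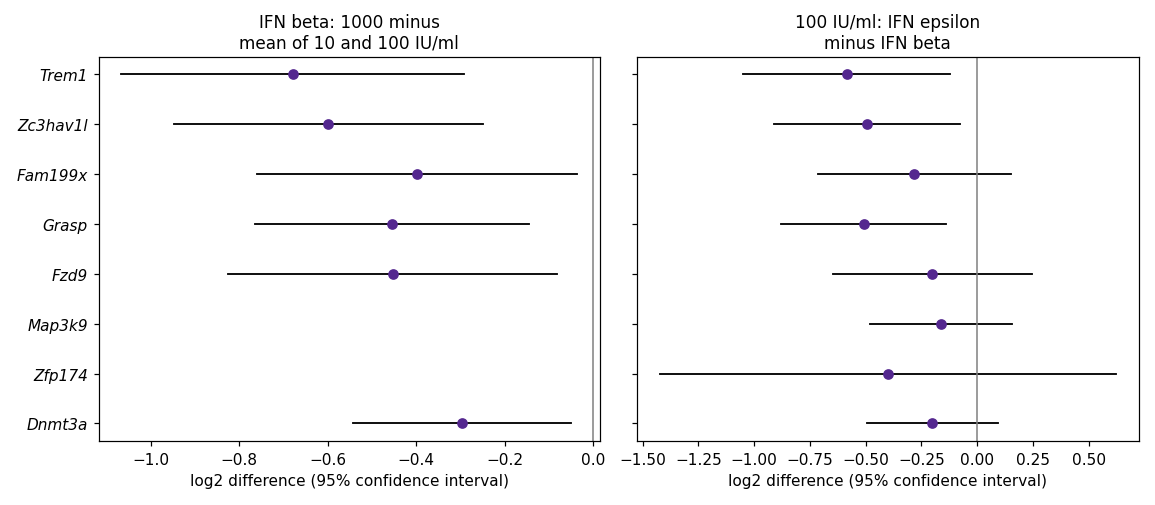
Estimated log2 differences (points) with 95% confidence intervals (lines) for 1000 IU/ml IFN beta minus the mean of its lower doses (left) and for IFN epsilon minus IFN beta at 100 IU/ml (right). Map3k9 and Zfp174 are left out on the left because they were chosen on IFN beta samples. Falls along the dose steps were open to the choice too, so the genes shown are a description and not an independent test. All estimates lie below 0, none was called over all genes, and Zfp174 was mostly not well above background.

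The 7 genes other than Zfp174 rose and fell together across samples. After each date's mean was subtracted, Pearson correlations over the 19 samples lay between 0.70 (their lowest) and 0.94 (Trem1 with Grasp) in their 21 pairs, with a median of 0.86, and between 0.38 and 0.58 for the pairs with Zfp174. The samples share untreated cells, dates and doses, and the genes were chosen for a common fall, so these values describe and do not test. By the same measure the gene most like Trem1 and most like Dnmt3a was Traf3, a signalling adaptor with roles in interferon production and in NF-kB signalling (r = 0.96 and 0.94), which differed by -0.50 ± 0.20 at 1000 IU/ml IFN epsilon. The gene most like Map3k9 was Ctdspl (r = 0.98, -0.34 ± 0.10), that most like Zc3hav1l was Gpsm1 (r = 0.96), that most like Grasp Pfn2 (r = 0.96), that most like Fam199x Phtf2 (r = 0.95), and that most like Fzd9 the chromatin remodeller Chd7 (r = 0.93, -0.70 ± 0.26). For Zfp174 it was Tprn, at 0.82.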

How the data were processed

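Fluorescence of Cy3-labelled RNA was read on single-colour Agilent arrays, and per the file headers the deposited intensity values (processed signal) are background-subtracted and detrended within each array by Agilent Feature Extraction 11.0.1.1. The authors' deposited log2 table (R 3.6.1 with limma 3.42.0, per the submitters' processing notes) served as an alternative, and its between-array step is not given in the sources used here. Control and outlier spots were left out and spots of a probe averaged. Log2 intensity was taken relative to each array's 75th percentile, which lay between 644 and 1222 units, and arrays of a sample were averaged. Probes had to exceed background clearly in 2 or more samples of some group, and each gene took its brightest kept probe by mean. Differences were fitted with limma 3.58.1 in R 4.3.3 over 19 samples in 7 groups (12 residual degrees of freedom), with Benjamini-Hochberg adjustment over 14425 genes and a threshold of 0.05. The number of arrays limits the precision. The arrays' names are those of their design.

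The labels place same-numbered replicates on the same date, and deviations of treated samples from their group means correlated with those of the untreated sample of that date (r from 0.212 to 0.766), so the date was also fitted as a replicate block. The genes named are the 8 members, other genes called lower at 1000 IU/ml, called genes and paralogs from gene lists for each member's pathway, the most correlated genes and 4 interferon-induced genes. Kinase, scaffold, receptor and marker genes that were listed but not called are named as context, a choice made with their values known. The members and lists were chosen with earlier results of these data known. Alternatives covered scaling, background correction (normexp, offset 50, on the median signal, since the mean signal was not used), the filter, the choice of probe, the date and slide, the arrays labelled excluded, and each sample left out in turn. The fitting was tested on simulated data.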

Additional observations from a re-analysis of the deposited data

Results flagged for a closer look

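The date 3 arrays of IFN beta at 10 and 100 IU/ml are labelled as excluded and were left out of the main fit. Above, they entered only the alternative fits with all arrays. The rise of the interferon-induced genes on the 100 IU/ml array was also given. Both arrays carry signal from the 8 genes. On the excluded array of 100 IU/ml all 8 genes lay below all 6 untreated arrays. Relative to the untreated sample of that date the log2 differences were -1.24 for Trem1, -1 for Zc3hav1l, -0.55 for Fam199x, -0.84 for Grasp, -1.10 for Fzd9, -0.88 for Map3k9, -3.59 for Zfp174 and -0.63 for Dnmt3a. On the excluded array of 10 IU/ml 6 genes lay below all untreated arrays, with -0.86 for Trem1, -0.70 for Zc3hav1l, -0.27 for Grasp, -0.50 for Map3k9, -3.40 for Zfp174 and -0.57 for Dnmt3a. Zfp174 was not well above background on either array, so its differences have no measured size, and they rest on the untreated sample that holds the high array. On these arrays the mean of Isg15, Ifit1, Irf7 and Usp18 was 4.75 (100 IU/ml) and 4.52 (10 IU/ml) above the untreated sample. The 1000 IU/ml IFN beta sample of date 3 showed 4.70. The arrays of dates 1 and 2 showed 2.49 and 3.72 at 100 IU/ml and 0.80 and 1.09 at 10 IU/ml, well below the excluded arrays. The part of that difference in the values of the 8 genes was not tested.

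At 10 IU/ml Zc3hav1l was below the untreated sample on every date with IFN epsilon (-0.09, -0.20 and -0.04) and above it on both dates with IFN beta (0.12 and 0.10). The difference between the interferons in the fit was -0.081, and whether the directions differ was not tested further.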

How the results depend on the processing

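At 1000 IU/ml IFN epsilon the count of genes called lower was 10, and it was 4 with median scaling or with only the groups compared, 6 with no filter, 2 with all 24 arrays, 517 with the replicate block, 18 on dates 1 and 2 only (added after seeing the data) and 4 to 13 with a sample left out. For 1000 IU/ml IFN beta it was 2, and became 1 with median scaling, with the filter in every sample of a group or on dates 1 and 2 only, 5 with the deposited table, 94 with the replicate block, and 0 with no filter, the slide term, all 24 arrays, only the groups compared, or without the first untreated array of date 3 (also added after seeing the data), and 0 to 18 with a sample left out. Against the lower IFN beta doses the count was 0, and became 1 with quantile normalization, the slide term, dates 1 and 2 only or without that untreated array, 3 with normexp, 7 with the deposited table, 27 with the replicate block and 0 to 20 with a sample left out. Against the lower IFN epsilon doses 0 became 1 with quantile normalization, the deposited table or the slide term, 97 with the replicate block, 5 on dates 1 and 2 only and 0 to 3 with a sample left out. For IFN epsilon against IFN beta at 100 IU/ml it was 0 to 1 with a sample left out. Zc3hav1l was called against the lower IFN beta doses with the block, with normexp (-0.58) and with the deposited table (-0.65). Directions turned for Zfp174, mostly not well above background, against the lower IFN epsilon doses (-0.36 with median scaling, -0.54 with quantile normalization, -0.14 with the deposited table, -0.11 with the slide term, and -0.093 to 0.205 with a sample left out) and at 1000 IU/ml IFN epsilon on dates 1 and 2 (0.041). At 100 IU/ml they turned between the interferons for Zfp174 with normexp (0.12) and all 24 arrays (0.27), and with all 24 arrays for Fzd9 (0.025) and Map3k9 (0.057). No other member value in these comparisons reversed. At 1000 IU/ml IFN epsilon 52 of 255 values lost the call of the first fit, and 31 of the 255, those of Zfp174, had no call to lose. At 1000 IU/ml IFN beta 43 of 255 values lost it, 24 of 32 for Map3k9 and 19 of 31 for Zfp174, and 7 values of other members gained a call. Median scaling moved the median of all genes to -0.44 at 1000 IU/ml IFN epsilon and -0.19 at 1000 IU/ml IFN beta, from -0.05 and -0.04. The cause of these changes was not tested. Among the 8 genes, only the probe of Zfp174 was not well above background on all 22 arrays.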
